A study of Mus musculus with 6 samples.

Results

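Glutathione transferases were followed in mouse embryonic stem cells with and without Sirt1, which encodes an NAD-dependent protein deacetylase. The 10 genes described were Gstm1, Gstm2, Gstm4, Gstm5, Gstm6 and Gstm7 of the mu class, Gsta4 of the alpha class, Gstp1 of the pi class, Gstt1 of the theta class and Gsto1 of the omega class. They are 10 of 18193 named genes on the array. They were found by exact match of the annotated gene symbol, which gave 15 of 45101 probe sets, 0 of them annotated to more than 1 gene. Each gene was read on its brightest probe set by the mean of the 6 arrays, and the others are given beside it. The probe sets were thus selected on their mean level. The genes themselves were picked with the KO minus WT change on these arrays already known, Gstm2 being one of the larger rises. Their differences between genotypes are therefore given as a description, without p-values.

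Glutathione transferases join the tripeptide glutathione to reactive electrophiles such as lipid peroxidation products, drugs and epoxides. The conjugates leave the cell through ABCC transporters and are trimmed to mercapturates. Many of these genes are targets of the transcription factor NRF2 (gene Nfe2l2), which KEAP1 holds at low level until electrophiles modify KEAP1, and which binds antioxidant response elements with small MAF proteins. The classes differ in substrate: mu, alpha and pi enzymes conjugate broadly, theta enzymes use a serine rather than a tyrosine in catalysis, and omega enzymes use a cysteine and act mainly as thiol transferases and reductases.

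Total RNA came from R1 embryonic stem cells of the strain (129X1 x 129S1)F1, either Sirt1+/+ (wild type, WT; 3 arrays) or Sirt1-/- (knockout, KO; 3 arrays). The labels name no other allele or treatment, and both genotypes were grown on gelatin in high-glucose medium with serum, LIF and beta-mercaptoethanol, a thiol reductant. The labels name 1 source of each genotype, so the effect of losing Sirt1 and any further difference between these 2 sources cannot be told apart. They do not say whether the 3 samples of a genotype were separate cultures, and the spread between them may be technical. Each sample was hybridised to 1 Affymetrix 3' array, read as log2 RMA levels, on which 1 unit is a doubling. Precision is limited by having 3 arrays per genotype, and an exact permutation test of 3 against 3 cannot go below p = 0.1.

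The arrays were alike in level, each with a median probe set at 4.51 to 4.57 and correlations of 0.997 to 0.998 within a genotype and 0.989 to 0.991 across genotypes, computed over genes, which do not replicate each other. Sirt1 itself read 10.12, 10.13 and 10.23 in WT and 8.02, 7.94 and 8.20 in KO, lower in every KO array. The sources used here do not place its probe set relative to the deleted part. Marker lists are counted by a Benjamini-Hochberg adjusted p below 0.05 in limma over all genes, where 30.0% of all genes passed, 48.0% of those above the median gene level of 5.83 and 12.1% of the rest. All 10 markers of embryonic stem cells lay above each array's median, and 6 fell and 0 rose (0 higher at an unadjusted p below 0.05). Their mean level was 11.87 to 11.90 in WT and 11.55 to 11.59 in KO, and the largest fall was that of Nanog, by 0.90. Of 10 fibroblast markers 6 (Col1a1, Col1a2, Col3a1, Dcn, Lum and Postn) lay below the median of every array and were not called. The other 4 moved both ways: Vim and Fn1 rose by 1.28 and 0.35, and Thy1 and Pdgfrb fell by 1.07 and 0.50, while the list mean was 5.42 to 5.47 in WT and 5.38 to 5.54 in KO. Of 12 markers of extraembryonic endoderm 6 fell and 0 rose (1 was higher at an unadjusted p below 0.05), and their mean was 6.06 to 6.13 in WT and 5.26 to 5.41 in KO. Of these 12, Afp and Gata4 lay below the median of every array. Of 8 measured hepatocyte and adult epithelial markers 2 rose (Krt18 and Fabp1) and 2 fell (Epcam and Krt19). Alb, Cyp2e1, Fabp1 and Vil1 lay below every median, and the list mean was 5.97 to 6.05 in WT and 5.90 to 5.95 in KO. Fabp1 rose from a mean of 2.80 in WT, under the arrays' lower quartile, to 3.32 in KO, where a fold is limited by background. In bulk RNA, fewer cells of a type and less RNA per cell cannot be told apart, and the part of other cells in the values below was not tested.

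The sequences before the start sites of 4 genes are printed because the first pair rose most within the mu cluster and the second pair, which rose less, carry a match to the antioxidant response element or the AP-1 site. They are from RefSeq on GRCm38.p6 and give the 250 bases before the outermost annotated start, 5′ to 3′ on the gene's own strand. Capitals mark matches on either strand to the core of the antioxidant response element (TGACNNNGC), the AP-1 site (TGANTCA), the TATA box (TATAAA) and the CCAAT box (CCAAT). The first motif can overlap the AP-1 site, since both begin with TGA.
Gstm2: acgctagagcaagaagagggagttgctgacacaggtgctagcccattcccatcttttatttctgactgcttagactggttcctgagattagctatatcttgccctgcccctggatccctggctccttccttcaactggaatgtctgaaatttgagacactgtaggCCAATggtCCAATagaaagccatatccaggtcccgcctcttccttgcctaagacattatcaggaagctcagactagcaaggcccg
Gstm3: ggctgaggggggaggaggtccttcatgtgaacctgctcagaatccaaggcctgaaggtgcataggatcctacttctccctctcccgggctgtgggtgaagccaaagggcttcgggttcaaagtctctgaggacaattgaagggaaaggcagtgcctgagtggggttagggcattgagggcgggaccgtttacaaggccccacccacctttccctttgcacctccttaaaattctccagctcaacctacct
Gstm5: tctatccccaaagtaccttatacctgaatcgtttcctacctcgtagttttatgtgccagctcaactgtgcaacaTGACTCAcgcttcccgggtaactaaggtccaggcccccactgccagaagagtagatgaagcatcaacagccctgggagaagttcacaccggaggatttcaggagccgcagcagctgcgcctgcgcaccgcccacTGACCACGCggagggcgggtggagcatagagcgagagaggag
Gstp1: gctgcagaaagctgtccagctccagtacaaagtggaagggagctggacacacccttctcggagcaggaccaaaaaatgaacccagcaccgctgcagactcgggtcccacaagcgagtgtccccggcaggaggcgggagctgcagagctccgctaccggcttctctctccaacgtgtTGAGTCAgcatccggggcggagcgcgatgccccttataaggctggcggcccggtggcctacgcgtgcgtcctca
The Gstm2 stretch lies at chr3:107986421-107986670 on the minus strand, that of Gstm3 at chr3:107969175-107969424 on the minus strand, that of Gstm5 at chr3:107895604-107895853 on the plus strand and that of Gstp1 at chr19:4037913-4038162 on the minus strand.

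RefSeq start windows of 300 bases (250 before and 50 after the start) were found for 9 of the 10 genes, with 14 start sites in all. Among 32851 mouse start windows of that length, 12.4% held TGACNNNGC, 7.81% TGANTCA, 13.6% TATAAA, 37.4% CCAAT and 7.15% the E-box CACGTG. The Gstm5 window held TGACCACGC at -42 and TGACTCA at -176, counted from the start. One of the 2 Gstm7 start windows held TGACAAAGC at -129, and the Gstp1 window held TGAGTCA at -74. Gstm2 had a pair of CCAAT boxes at -85 and -77 and none of the other motifs, and the window of Gstm3 held none of the 5 motifs. The windows of Gsto1 held none either, and those of Gstt1, Gstm4 and Gstm6 held CCAAT alone. Gstm1 had CCAAT matches at both of its start sites and TATAAA at -30 of the inner one. CpG pairs numbered 3 in the Gstm2 window and 5 in that of Gstm3, against a median of 7 over all windows, and 18 and 20 in those of Gstm5 and Gstp1. These are letter matches in short windows and were not linked to binding.

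A gene was counted as called when its adjusted p passed 0.05 in limma over all 18193 genes (Benjamini-Hochberg adjustment), and "rose" and "fell" are used only of such genes. Of the 10 genes 4 rose in KO (Gstm1, Gstm2, Gstm5 and Gstp1), 3 fell (Gsta4, Gstt1 and Gsto1) and 3 were not called (Gstm4, Gstm6 and Gstm7). Over all genes 30.0% were called, 12.5% higher and 17.5% lower, and among genes above the median level, where 8 of the 10 lie, 48.0% were called. Since the genes were named with this comparison known, nothing is read from the count. Their median log2 change was 0.09, beside -0.01 over all genes, and their median absolute change 0.37, beside 0.14. In the same 7 genes the arrays of one genotype lay wholly to one side of the other, a pattern seen in 43.8% of all genes and 35.9% of all probe sets. Only Gstm2 was called with a change of at least 2-fold, as were 1.93% of all genes.

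**Figure D1:**
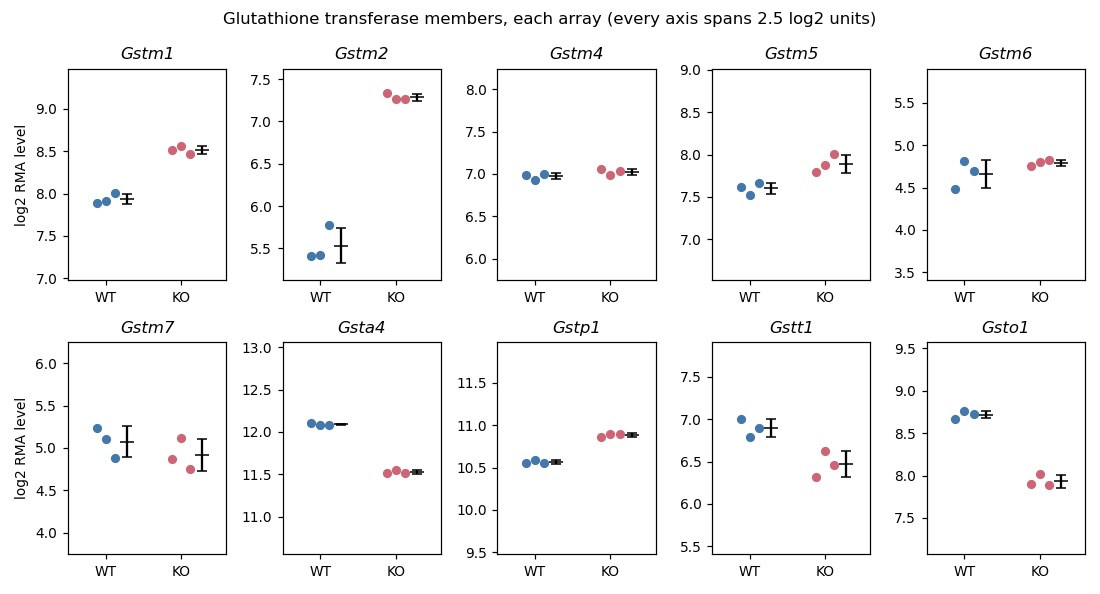
Log2 RMA level of each of the 10 genes on its brightest probe set, in 3 WT arrays (blue) and 3 KO arrays (red); the black mark and bar are the mean and SD of the 3 arrays. Gstm2 stands between 5.41 and 5.77 in WT and between 7.26 and 7.34 in KO, while Gstm4, Gstm6 and Gstm7 overlap between genotypes.

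Gstm2, a mu-class enzyme, differed most of the 10. Its 1 probe set read 5.41, 5.42 and 5.77 in WT and 7.34, 7.26 and 7.27 in KO. The lowest KO array was thus well above the highest WT array, and WT replicate 3 was the one that lay apart from its group. The means were 5.53 ± 0.21 and 7.29 ± 0.04 (± SD, n = 3 per genotype), and KO exceeded WT by 1.75 log2 units (SE 0.10), or 3.37-fold. Ranked by change, it was number 8 from the top of all genes. Without WT replicate 3 the change was 1.87. The WT level lay below the median level of all genes, 5.83, and the KO level above it.

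Gstm1, the mu enzyme that also binds and restrains the kinase ASK1, rose more modestly. It read 7.89, 7.91 and 8.01 in WT and 8.51, 8.56 and 8.46 in KO, with no overlap. The log2 change was 0.58 (SE 0.05), or 1.49-fold. Gstm1 had 4 probe sets, and all of them had every KO array above every WT array. The chosen one and another carry the suffix _x_at, which marks probe sets with probes that also match other transcripts. Of the plain ones, 1448330_at read 7.33, 7.28 and 7.37 in WT and 7.94, 7.93 and 7.88 in KO, a change of 0.59 (SE 0.06), close to that of the chosen probe set. The dimmest, 1425626_at, changed by 0.24 and was not called in the fit over all 45037 probe sets that are not controls, of which 19.8% were called.

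Gstm5 read 7.62, 7.53 and 7.66 in WT and 7.79, 7.88 and 8.01 in KO. The groups did not overlap, and the log2 change was 0.29 (SE 0.07), or 1.22-fold. Its call was lost without WT replicate 1 (0.30), WT replicate 2 (0.25), KO replicate 2 (0.30) or KO replicate 3 (0.24), while the direction held.

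Gstm4, another mu gene, was not called, at 6.99, 6.93 and 7.00 in WT and 7.06, 6.99 and 7.04 in KO. Its log2 change was 0.05, with a 95% confidence interval of -0.06 to 0.17. Gstm6 read 4.49, 4.81 and 4.69 in WT and 4.75, 4.80 and 4.82 in KO, a change of 0.13 (interval -0.08 to 0.34). Both sets of arrays overlapped, and Gstm6 lay below the median level of all genes.

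Gstm7 gave different answers on its 2 probe sets. The brighter, 1425946_at, read 5.24, 5.10 and 4.88 in WT and 4.87, 5.12 and 4.75 in KO, a change of -0.16 (interval -0.46 to 0.14) with overlapping groups. The dimmer, 1419072_at, read 3.74, 3.92 and 3.75 in WT and 4.76, 4.53 and 4.39 in KO, with no overlap, a change of 0.76 (SE 0.11) that was called in the fit over probe sets. With the 2 averaged, the change of Gstm7 was 0.30 and was called higher, which made 5 of the 10 genes higher instead of 4. Which of the 2 reports the Gstm7 transcript better was not tested.

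**Figure D2:**
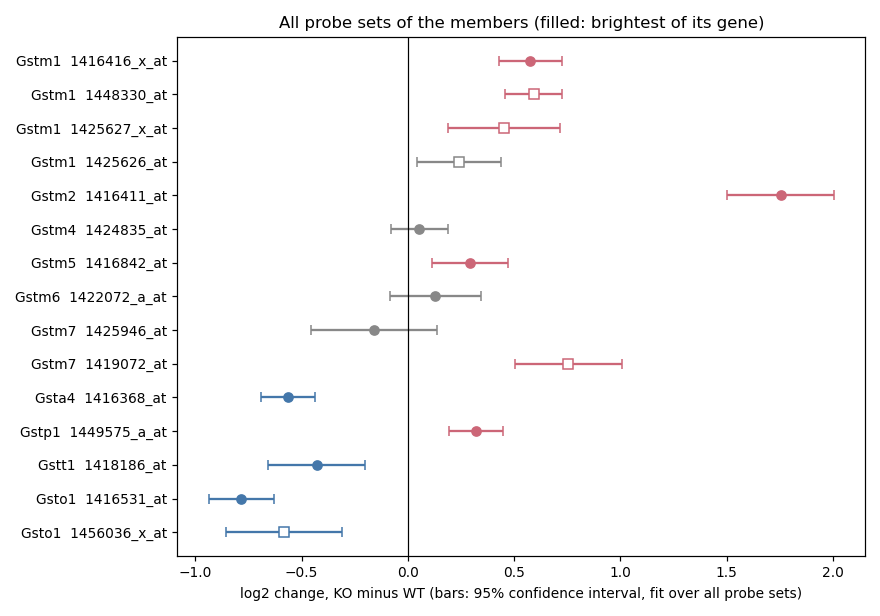
Log2 change (KO minus WT) of all 15 probe sets of the 10 genes with its 95% confidence interval from the fit over all probe sets; filled circles are the brightest probe set of a gene, open squares the others, red called higher, blue called lower and grey not called. The 2 probe sets of Gstm7 fall on opposite sides of 0, at -0.16 and 0.76, while the 4 of Gstm1 and the 2 of Gsto1 each lie on one side.

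Gstp1, the pi-class enzyme that is abundant in many dividing cells and also binds the kinase JNK, rose slightly and evenly. It read 10.55, 10.59 and 10.56 in WT and 10.86, 10.90 and 10.89 in KO. The spread within a genotype was small, with SDs of 0.02 in each, and the log2 change was 0.32 (SE 0.04), or 1.25-fold. Its single probe set has the suffix _a_at, used where several transcripts of one gene are read together. Gstp2, another pi gene, was not among the measured genes, and whether this probe set also reads it was not tested. The gene lies at chr19:4035411-4037912 on GRCm38.p6.

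Gsta4, the alpha enzyme that conjugates the lipid peroxidation product 4-hydroxynonenal, fell. It read 12.10, 12.08 and 12.09 in WT and 11.51, 11.56 and 11.51 in KO, with no overlap and SDs of 0.01 and 0.02. The log2 change was -0.56 (SE 0.04), or 1.48-fold lower in KO. Gsta4 lies at chr9:78191966-78209349.

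Gsto1, the omega enzyme that also reduces dehydroascorbate, had the largest fall of the 10. Its brighter probe set read 8.67, 8.76 and 8.73 in WT and 7.90, 8.02 and 7.88 in KO. The change was -0.78 (SE 0.06), or 1.72-fold lower. The other probe set, 1456036_x_at, read 8.45, 8.20 and 8.62 in WT and 7.78, 7.95 and 7.79 in KO, a change of -0.58 (SE 0.12) with wider spread in WT. Both had every KO array below every WT array. The gene lies at chr19:47854973-47864790.

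Gstt1, a theta enzyme that acts on small halogenated compounds, read 7.00, 6.80 and 6.90 in WT and 6.31, 6.62 and 6.46 in KO. The groups did not overlap, though its arrays were more scattered than those of Gsta4. The change was -0.43 (SE 0.09), or 1.35-fold lower in KO. Without WT replicate 1 the change was -0.38 and the call was lost. Gstt1 lies at chr10:75783813-75798584, on the chromosome that also carries Sirt1.

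The mu genes form a cluster on chromosome 3, and Gstm3, which is not among the 10, lies inside it next to Gstm2. Gstm3 read 6.95, 6.65 and 7.03 in WT and 8.45, 8.50 and 8.55 in KO on its brighter probe set. It rose by 1.62 (SE 0.10; adjusted p = 0.000147, limma with Benjamini-Hochberg), or 3.07-fold. That probe set has the suffix _s_at, which marks probes shared with other transcripts. The other, 1427473_at, read 4.99, 4.59 and 4.89 in WT and 5.53, 5.53 and 5.82 in KO, a rise of 0.81 (limma over probe sets, Benjamini-Hochberg adjusted p = 0.00541). In chromosome order the changes ran from 0.29 at Gstm5 through -0.16 at Gstm7 and 0.13 at Gstm6 to 1.62 at Gstm3, 1.75 at Gstm2, 0.58 at Gstm1 and 0.05 at Gstm4. The cluster thus had 4 risen genes of 7, and the 3 that lie side by side, Gstm3, Gstm2 and Gstm1, had the largest changes on their brightest probe sets. Because paralogues share sequence, how far probes of one gene read another was not tested.

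Of the 16 measured genes that flank the cluster, 8 on each side, 2 rose and 1 fell, with a median change of 0.06. Rbm15, an RNA-binding protein of the m6A writer complex, rose by 0.59 (adjusted p = 0.000736, limma with Benjamini-Hochberg). Ahcyl1, a regulator of the IP3 receptor, rose by 0.20 (adjusted p = 0.0401, limma with Benjamini-Hochberg). Gnat2, the cone transducin subunit, fell by 0.52 (adjusted p = 0.0145, limma with Benjamini-Hochberg). The nearest flanking genes in this order, 4933431E20Rik before Gstm5 and Ampd2 after Gstm4, changed by 0.02 and 0.05 and were not called. The annotated span of 4933431E20Rik overlaps the start of Gstm5. Its means were 3.16 in WT and 3.18 in KO, near the arrays' lower quartile, where a change is limited by background. The call of Gnat2 was lost without WT replicate 1, and that of Ahcyl1 on leaving out any single array but WT replicate 2 and with the replicate number as a block. Over the 913 genes of chromosome 3, 121 rose and 160 fell, with a median of -0.01.

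**Figure D3:**
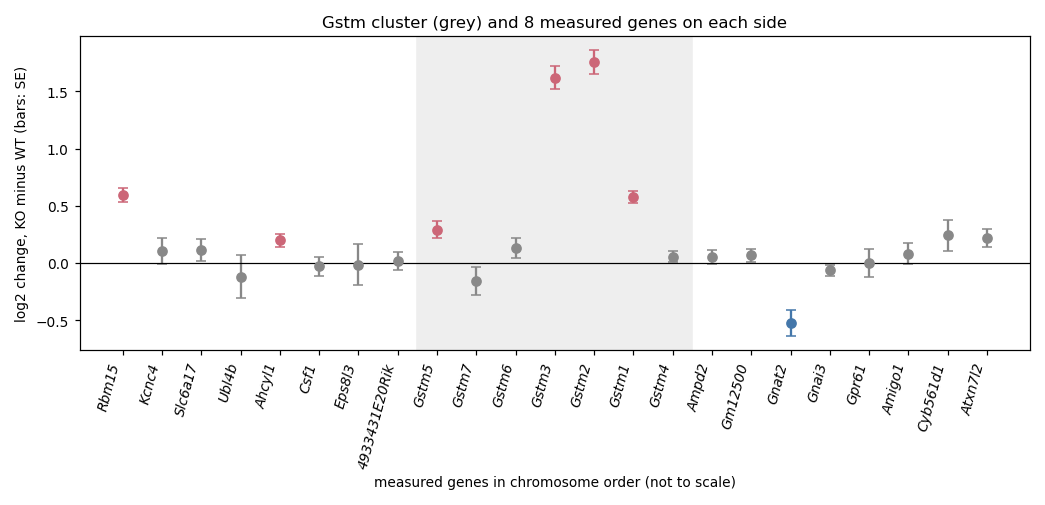
Log2 change (KO minus WT) with its SE for the 7 measured Gstm genes (grey band) and 8 measured genes on each side, in chromosome order and not to scale; red was called higher, blue called lower and grey not called. Gstm3 and Gstm2 stand at 1.62 and 1.75, while the genes at the edges of the band and next to it lie near 0 apart from Gstm5 at 0.29.

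The other soluble glutathione transferases were counted from a list of 16, of which 12 were measured: 2 rose, 5 fell and 5 were not called. This is 58.3%, beside 30.0% over all genes, and 6 of the 12 lie above the median level. The division into the 10 and the others was made with results known, so the groups are not compared. Besides Gstm3, the pi-class gene Gstp3 rose by 0.63, with means of 5.25 ± 0.07 in WT and 5.88 ± 0.12 in KO (± SD, n = 3 per genotype; adjusted p = 0.00134, limma with Benjamini-Hochberg). Gstt3, a theta gene beside Gstt1, fell by 0.72, with means of 6.33 ± 0.19 in WT and 5.61 ± 0.09 in KO (± SD, n = 3 per genotype; adjusted p = 0.00283, limma with Benjamini-Hochberg). Gsto2, the neighbour of Gsto1, fell by 0.59, but it read 3.14, 3.08 and 3.05 in WT and 2.66, 2.45 and 2.40 in KO, under each array's lower quartile of 3.16 to 3.24, where a fold is limited by background. Gstcd and Gstz1, the latter the maleylacetoacetate isomerase of tyrosine breakdown, fell by 0.43 and 0.37. The mitochondrial kappa enzyme Gstk1 fell by 0.34 (adjusted p = 0.033, limma with Benjamini-Hochberg), a call lost on leaving out any single array but WT replicate 2. That of Gstz1 was lost without WT replicate 1 or KO replicate 3.

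Over all 22 genes, 6 rose, 8 fell and 8 were not called, against 12.5% higher and 17.5% lower over all genes. The 22 include the 10 named with their change known, so the split by class is a description. By class, 4 of 7 mu and both measured pi genes rose, and none of these fell. Of 4 theta genes 2 fell, as did both omega genes and the single kappa and zeta genes. Of Gstcd and Hpgds, outside these classes, the first fell and the other was not called. Of 3 alpha genes Gsta4 fell, and Gsta2 and Gsta3 were not called, at means of 2.82 and 4.52 in WT. Gstt2 read 8.08 ± 0.03 in WT and 8.18 ± 0.05 in KO (± SD, n = 3 per genotype) and was not called, so the theta neighbours did not all pass the test.

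The membrane-bound enzymes and their relatives gave 3 falls among 6 measured genes and 0 rises in limma, with 0 higher at an unadjusted p under 0.05. This is 50.0%, beside 30.0% of all genes, and the 3 that fell are the 3 above the median level, where 48.0% were called. Mgst1, the microsomal transferase and peroxidase of the endoplasmic reticulum and outer mitochondrial membrane, fell by 0.56, with means of 6.54 ± 0.23 in WT and 5.98 ± 0.06 in KO (± SD, n = 3 per genotype; adjusted p = 0.0117, limma with Benjamini-Hochberg). Mgst3 fell by 0.45 and Alox5ap, which presents arachidonic acid to 5-lipoxygenase, by 0.54. The dimmer probe sets of Mgst1 and Mgst3 read -0.15 and 0.08 and were not called. Their means were 2.88 in WT and 2.72 in KO for Mgst1, under the arrays' lower quartile, and 3.60 and 3.68 for Mgst3. At such levels a change is limited by background. The brightest Mgst3 probe set read 9.67 in WT and 9.22 in KO. Ptges read 0.01 on its brightest probe set and was not called. Its others read -0.49, called in the fit over probe sets, and -0.10, not called. With the probe sets of a gene averaged, Ptges was called and Mgst3 was not.

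Of 16 measured genes that supply and break down glutathione 6 rose and 1 fell. This is 43.8%, beside 30.0% of all genes, and near the 48.0% called above the median level, where 11 of the 16 lie. Cth, which makes cysteine from cystathionine, rose by 1.035 and Slc3a2, the heavy chain shared by amino acid exchangers, by 0.80, with means of 10.64 ± 0.02 in WT and 11.44 ± 0.02 in KO (± SD, n = 3 per genotype; adjusted p = 9.11e-05, limma with Benjamini-Hochberg). Glutathione synthetase Gss rose by 0.53. Slc7a11, the cystine carrier that pairs with Slc3a2, rose by 0.30 from means of 3.21 to 3.51, close to the arrays' lower quartile. Ggct, which cleaves gamma-glutamyl amino acids, fell by 0.30. The call of Ggct was lost on leaving out any single array but KO replicate 3 and with the replicate number as a block, and that of Slc7a11 without WT replicate 1, WT replicate 3, KO replicate 2 or KO replicate 3. The 2 subunits of the rate-limiting glutamate-cysteine ligase were named after their values were seen. On its brightest probe set the modifier Gclm rose by 0.27 (adjusted p = 0.0116, limma with Benjamini-Hochberg). The catalytic Gclc read 0.04 on its brightest (adjusted p = 0.662, limma with Benjamini-Hochberg). The dimmer probe sets of Gclm and Gclc read 0.02 and 0.12 and were not called. The call of Gclm was lost with its probe sets averaged and at an adjusted p of 0.01. The 2 changes were not compared.

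Of 12 glutathione peroxidases and glutaredoxins 3 rose and 2 fell. This is 41.7%, beside 30.0% of all genes, and 9 of the 12 lie above the median level, where 48.0% were called. Glrx, Gpx1 and Glrx5 rose by 0.26, 0.22 and 0.18. Gpx3, the secreted peroxidase, fell by 0.53 (adjusted p = 0.00105, limma with Benjamini-Hochberg) and Gpx8, of the endoplasmic reticulum, by 0.49. The falls of Gpx3 and Gpx8 were called with any single array left out. The rise of Glrx5 was called in none of these 6 fits, that of Glrx only without WT replicate 3, and that of Gpx1 not without WT replicate 1, KO replicate 2 or KO replicate 3. With the replicate number as a block, Glrx and Glrx5 lost their calls.

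Among 14 measured genes of conjugate export and mercapturate formation 3 rose and 2 fell (35.7%, near the 30.0% of all genes). Abcc1, the main exporter of glutathione conjugates, fell by 0.34, from 9.97 to 9.62 (adjusted p = 0.00166, limma with Benjamini-Hochberg), and Abcc4 by 0.22. The dipeptidase Dpep3, on chromosome 8, rose by 0.50, the exporter Abcc5 by 0.30 and the aminopeptidase Lap3 by 0.20. Dpep3 had means of 3.49 in WT and 3.99 in KO, not far above the arrays' lower quartile, where a fold is limited by background. It had no value in the fit without the dimmest 40% of genes. The call of Abcc5 was lost without WT replicate 1 or any 1 KO replicate, that of Abcc4 without WT replicate 1, and that of Lap3 without KO replicate 3 and with the replicate number as a block.

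The NRF2 system and its targets outside glutathione metabolism had 7 risen and 7 fallen genes of 20 measured, with a median change of 0.08. This is 70.0%, beside 30.0% of all genes, and 18 of the 20 lie above the median level, where 48.0% were called. Nfe2l2, the gene of NRF2 itself, rose by 0.28 (adjusted p = 0.00527, limma with Benjamini-Hochberg). Its dimmer probe set read 0.73 and was called higher too (limma over probe sets, Benjamini-Hochberg adjusted p = 0.002). Keap1 read 7.69 ± 0.03 in WT and 6.84 ± 0.01 in KO (± SD, n = 3 per genotype) and fell by 0.85 (adjusted p = 8.18e-05, limma with Benjamini-Hochberg), and its dimmer probe set read -0.24 and was not called. The small MAF genes moved both ways: Mafk and Mafg rose by 0.71 and 0.67, and Maff fell by 0.37 (adjusted p = 0.00353, limma with Benjamini-Hochberg). Heme oxygenase Hmox1 rose by 1.04 and the quinone reductase Nqo1 by 0.63. The epoxide hydrolase Ephx1 fell by 0.58, the carbonyl reductase Cbr3 by 0.50 and the sulfiredoxin Srxn1 by 0.44, so these targets moved both ways. Srxn1 was read on an _s_at probe set. Its call was lost without _x_at and _s_at probe sets and with its probe sets averaged. Hmox1 and Nqo1 lie on chromosome 8, where 313 of 932 genes (33.6%) rose. In a fit without that chromosome, tried after the data were seen, 5 rose and 7 fell of 17.

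Of 13 xenobiotic receptors and phase I enzymes 0 rose and 1 fell in limma, with 3 higher and 2 lower at an unadjusted p under 0.05. This is 7.69%, beside 30.0% of all genes, but 9 of the 13 lie at or below the median level, where 12.1% of genes were called, and nothing is read from the low count. The gene that fell was Tiparp, a target and repressor of the aryl hydrocarbon receptor, by 0.23 (adjusted p = 0.0107, limma with Benjamini-Hochberg). Without WT replicate 1, Ahr was called too.

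**Figure D4:**
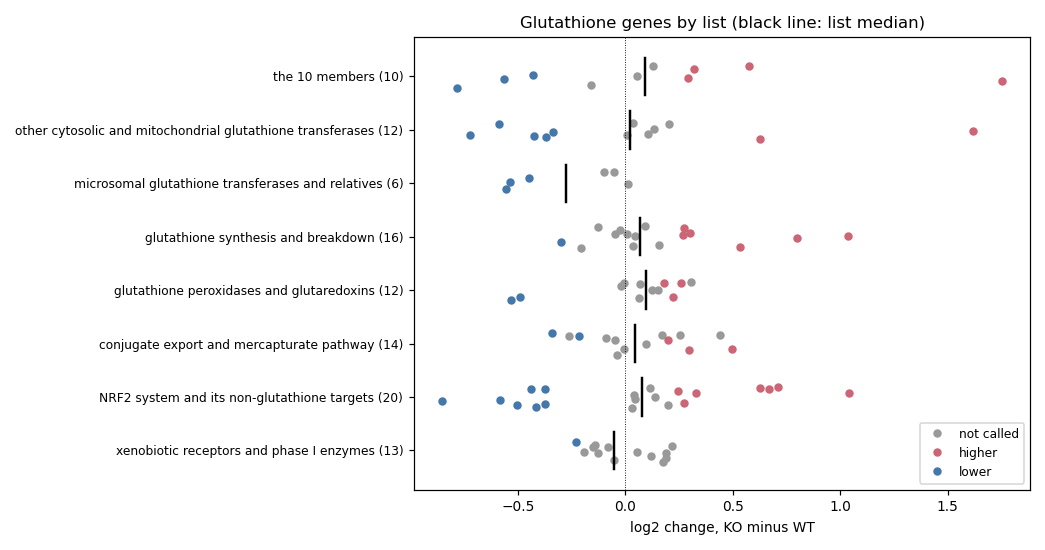
Log2 change (KO minus WT) of each measured gene, 1 point per gene, for the 10 genes and 7 lists of related genes (number measured in parentheses); red was called higher, blue called lower, grey not called, the black line is the list median and the vertical scatter has no meaning. Calls lie on both sides of 0 in 6 of the 8 rows shown, the microsomal row having falls alone and the receptor row 1 fall.

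The genes whose levels followed Gstm2 most closely over the 6 arrays, among genes above the median level with an established name, were Dctd, Atp5g1, Rnf166, Dync1h1 and Pld6. Their Pearson r with Gstm2 was 0.9989 to 0.9998. The points share 2 genotypes of 3 arrays each, and 486 genes had an r with Gstm2 of size 0.99 or more, so likeness to Gstm2 and a difference between genotypes cannot be told apart here. Their log2 changes were smaller than that of Gstm2, from 0.33 for Dync1h1 to 0.85 for Pld6, and Dctd and Rnf166 lie on chromosome 8.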

How the data were processed

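RNA of 6 samples was measured on 1 array each. The authors deposited log2 levels, for which the submitters' processing notes name RMA and Partek 6.5; the log2 scale was read from their range. RMA subtracts background, equalises the arrays' distributions and combines each set's probes by median polish. Settings and annotation build: not given in the sources used here. No recentring was applied.

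Of 45101 probe sets, 64 controls, 932 with several symbols and 9160 with none were left out of the gene fit. The other 34945 gave 18193 genes, one brightest probe set for each, with no filter on level. Of these, 18031 matched the reference (GRCm38.p6) by Entrez identifier. The genotype contrast was fitted in R 4.3.3 with limma 3.58.1 (lmFit, eBayes, two-sided, Benjamini-Hochberg over all genes at 0.05); 95% confidence intervals are from the same fit. The fit was also run over 45037 probe sets. The procedure was tried on simulated data with independent noise and few changed genes. That setting is unlike these data, so nothing about the calls here is read from it.

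The members, gene lists and rules were chosen with earlier results of these data known. The text names Sirt1, the 10 genes, up to 4 genes per list and direction with the largest change past the threshold, called flanking genes, and the 5 genes most like Gstm2. Gclc, Gclm, Gstk1, Gsta2, Gsta3, Gstt2, Hpgds, Ptges, Maff, Nfe2l2, the marker genes, Ahr and the nearest flanking genes were added after their values were seen. So were the probe-level and control values. Alternatives were other normalisations, filters, probe set choices, variance models and thresholds, the replicate number as a block, and each array left out. Same-numbered arrays deviated from their group means with correlations across genes of 0.05, -0.09 and 0.20, so the numbers were not taken to pair samples. Mean levels of the hybridisation controls, by number, were 9.491, 9.506 and 9.655 in WT and 9.488, 9.57 and 9.655 in KO. Those of the poly-A controls were 7.55, 7.586 and 7.725 in WT and 7.711, 7.783 and 7.967 in KO. Both rose with the number in each genotype, and whether same-numbered arrays were processed together was not tested.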

Additional observations from a re-analysis of the deposited data

How the results depend on the processing

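Directions of the 10 genes held under the alternatives tried except that of Gstm7, which was -0.16 on its brighter probe set and 0.2984, and called higher, with its probe sets averaged; Gstm6 had no value in the fit without the dimmest 40% of genes. Calls held for Gstm2 and Gstm3 under all 18 alternatives, Gstm3 ranging from 0.81 without _x_at and _s_at probe sets to 1.70. With 1 probe set, Gstm2 kept its change of 1.75 under every alternative filter, probe set choice, variance model, threshold and the block. Those alternatives are not separate checks of its size, and Gstm2 was picked with its change known. Gstm5 lost its call with an unmoderated model, at an adjusted p of 0.01 and under the leave-outs given above. Gstt1 did so with an unmoderated model, at 0.01, without WT replicate 1 and with the replicate number as a block (change -0.43). Requiring a 2-fold change left 1 higher and 0 lower among the 10, 352 of all genes, and 1 other soluble transferase, 0 microsomal, 1 synthesis, 0 peroxidase, 0 export, 1 NRF2, 0 xenobiotic and 0 flanking genes. At 0.01, 3356 genes were called, with 4 in synthesis, 2 peroxidases, 2 in export, 0 xenobiotic and 1 flanking. Over probe sets 8912 were called, with 3 peroxidases. The block gave 3 peroxidase calls, the unmoderated model 1 flanking call, the fit without _x_at and _s_at probe sets 0 xenobiotic calls and that without the dimmest 40% of genes 2.

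Leaving out 1 array in turn gave 4104 to 4753 called genes, 3 to 4 higher and 2 to 3 lower among the 10, 5 to 7 other soluble transferases, 3 to 3 microsomal, 5 to 6 synthesis, 2 to 4 peroxidase, 3 to 5 export, 12 to 13 NRF2, 1 to 2 xenobiotic and 1 to 3 flanking genes. The labels do not say that replicate numbers pair the samples, and the replicate block changed no call of the 10 but that of Gstt1. Rescaling moved the median of all genes by at most 0.02. The cause of lost calls was not tested. Genes near the arrays' lower quartile, such as Gsto2 and Slc7a11, are limited by background.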
